A study of Mus musculus with 20 samples.

Results

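The 9 genes described here are Dbp, Tef, Hlf, Nfil3, Bhlhe40, Bhlhe41, Usp2, Wee1 and Rora, which are read out by the circadian clock or feed back on it. They are chosen by name, and the rule uses no measured value, but the list was drawn up with earlier results of these data known. Each was taken at 1 probe set, the one with the highest mean over all arrays among those annotated to a single gene, so that they are 9 of the 18193 genes measured in this way. The working name of the set was clock output transcription factors. It fits 7 of the 9, since Usp2 encodes a ubiquitin-specific protease and Wee1 a protein kinase, and the set is called clock output genes below.

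Livers came from male C57BL/6J mice aged 8 weeks, 10 on a high-fat diet with 45% of its energy as fat (HFD) and 10 on the same diet with 0.05% of a maple syrup extract named MSXH (MSXH), 1 array per mouse. All 20 had a week of low-fat feeding first, then 4 weeks of their diet, and were killed on day 30 after a 16 h fast, so both groups share the fat, the fast and the strain. Lights were on from 08:00 to 20:00. Neither the clock hour of killing nor the make-up of the extract is given in the sources used here, and the low-fat group and the group given 0.02% of the extract were not analysed here.

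In the clock of liver cells, CLOCK and BMAL1 (the product of Arntl) bind E-boxes and drive Per, Cry and Nr1d genes, whose products repress that drive or Arntl itself. DBP, TEF and HLF are the PAR bZIP activators of D-box elements, and NFIL3 represses through the same elements, typically in opposite phase to DBP. BHLHE40 and BHLHE41 repress at E-boxes, and RORA activates the ROR elements at which the Nr1d products repress.

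Promoter windows are shown for Dbp, Tef and Nfil3, since Dbp and Tef moved together between mice in the deposited values and Nfil3 moved against Dbp. Of the correlations called under all 3 scalings below, Usp2 held 7 and Bhlhe40 5. Dbp held 3 of them, Tef 1 and Nfil3 1. The windows run from 250 bases before an annotated start to 50 bases after it, 5′ to 3′ on the strand of the gene. They are RefSeq sequences of build GRCm38.p6, and capitals mark a match on either strand to an E-box (CACGTG), a D-box (TTATGTAA or TTACGTAA) or a ROR element core (TAGGTCA or TGGGTCA).
Dbp: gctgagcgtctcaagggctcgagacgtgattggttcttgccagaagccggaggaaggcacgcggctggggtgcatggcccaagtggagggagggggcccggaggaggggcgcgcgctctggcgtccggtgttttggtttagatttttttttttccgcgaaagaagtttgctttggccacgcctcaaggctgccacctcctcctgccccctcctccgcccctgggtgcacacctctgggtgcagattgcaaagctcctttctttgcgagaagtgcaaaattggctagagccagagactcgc
Tef, start 1: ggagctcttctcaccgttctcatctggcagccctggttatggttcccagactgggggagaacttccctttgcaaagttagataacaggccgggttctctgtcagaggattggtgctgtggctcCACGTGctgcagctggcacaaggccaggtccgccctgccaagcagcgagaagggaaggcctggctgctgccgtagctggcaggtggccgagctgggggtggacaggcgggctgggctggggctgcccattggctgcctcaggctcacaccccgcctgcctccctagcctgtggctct
Tef, start 2: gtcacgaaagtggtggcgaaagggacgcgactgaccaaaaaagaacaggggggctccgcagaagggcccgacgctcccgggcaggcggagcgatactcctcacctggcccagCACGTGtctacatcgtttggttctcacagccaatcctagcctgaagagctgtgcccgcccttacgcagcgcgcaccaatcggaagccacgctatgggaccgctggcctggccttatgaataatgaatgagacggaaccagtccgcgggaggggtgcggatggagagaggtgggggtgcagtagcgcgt
Nfil3: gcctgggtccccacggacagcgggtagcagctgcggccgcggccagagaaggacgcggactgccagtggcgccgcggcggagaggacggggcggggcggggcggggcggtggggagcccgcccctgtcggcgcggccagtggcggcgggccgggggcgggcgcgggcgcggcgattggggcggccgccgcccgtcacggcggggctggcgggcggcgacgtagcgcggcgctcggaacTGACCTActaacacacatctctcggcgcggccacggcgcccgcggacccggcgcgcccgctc
The Dbp window lies at chr7:45704997-45705296 on the plus strand and holds no match to these letters. The Tef windows lie at chr15:81802423-81802722 and chr15:81811164-81811463 on the plus strand, at 2 annotated starts, and each holds an E-box, its first base at -127 and -138 from the start. The Nfil3 window lies at chr13:52980990-52981289 on the minus strand, at an annotated start inside the span of the gene given below. It holds a ROR element core at -12. Windows matched 7 of the 9 genes, those named here together with Hlf, Bhlhe41, Usp2 and Rora; Bhlhe40 and Wee1 are named only. Of these 7 genes, Tef and Bhlhe41 (at -153) held an E-box, Nfil3 held a ROR element core and 0 held a D-box. Over all 32851 windows of the same length, 7.15% held the E-box, 1.06% the D-box and 6.45% the ROR element core. Such a match is a description of letters, not a binding site.

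The genes themselves, by the same build, lie at chr7:45705100-45710203 (Dbp), chr15:81802673-81826863 (Tef), chr11:90336535-90390917 (Hlf), chr13:52967209-52982878 (Nfil3) and chr6:108660629-108666925 (Bhlhe40). Bhlhe41 lies at chr6:145858243-145865420, Usp2 at chr9:44067021-44095627, Wee1 at chr7:110122059-110143299 and Rora at chr9:68653404-69388246. On the array the 9 genes have 24 probe sets in all, and Nfil3 and Bhlhe40 have a single probe set each.

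The deposited values are log2 intensities from 5.199 to 14.96, and array medians lay between 6.5053 and 6.5055. Single genes also differed little between arrays: the median within-group SD of the 11728 genes tested was 1.48e-05 log2. With spreads so compressed, differences in these values cannot be read as fold changes. Each mouse is therefore given below as its deviation from the gene's mean in SDs over the 20 mice. A diet difference is MSXH minus HFD, expressed in within-group SDs (Hedges' g). The hepatocyte markers measured, 7 of 10 listed, had means from 12.08 to 14.74 log2, highest in Alb, so the defining genes of liver cells stood near the top of the scale. In bulk liver, fewer cells of a type and less RNA per cell cannot be told apart. Of the 9 genes, 8 lay above the median level of all probe sets (6.5054 log2) and entered the diet test; Bhlhe41, at 6.473, lay below it and is given from the fit without that filter.

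The clock output genes differed widely in how much they varied between mice. The within-group spread of Dbp stood at the 99.2 percentile of the 11728 genes tested, Usp2 at 98.4, Bhlhe40 at 97.6, Nfil3 at 96.7 and Tef at 93.2. Wee1 stood at 89.3, Hlf at 81.5, Rora at 61.5 and Bhlhe41 at 51.8. Rora's SD was 1.93e-05 log2 in HFD mice and 2.44e-05 in MSXH mice, against a range of array medians of 0.000176 log2. The SDs of Hlf (6.32e-05 and 6.09e-05), Bhlhe41 (1.98e-05 and 1.01e-05) and Wee1 (9.61e-05 and 0.000173) also lay below that range, and that of Tef in MSXH mice (0.000171) was close to it. The SD of Dbp was 0.00928 log2 in HFD mice and 0.00619 in MSXH mice. Its values spanned 0.0303 log2, well above the range of the array medians. These spreads are on the deposited scale and describe the data set's values, not amounts of RNA.

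**Figure D1:**
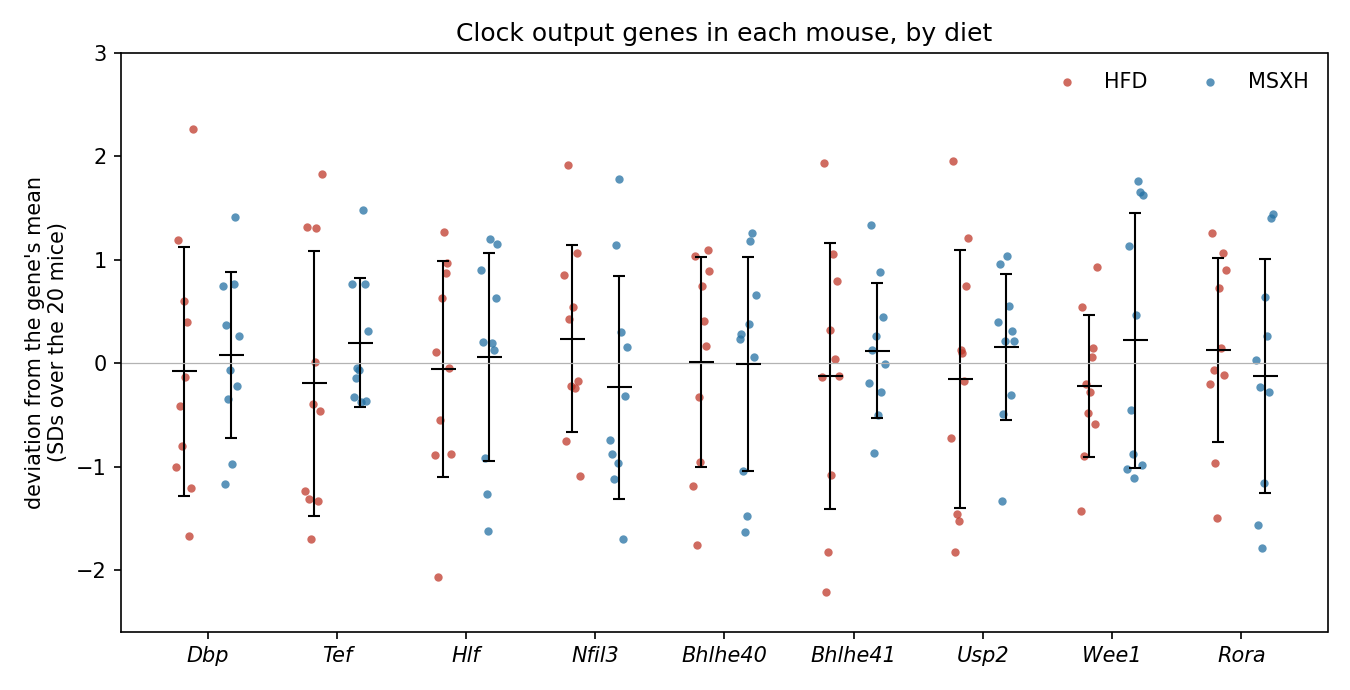
Each point is 1 mouse, as its deviation from the gene's mean over all 20 mice in SDs (y axis), for the 9 clock output genes (x axis), HFD in red and MSXH in blue, 10 mice each. Black bars are the group mean ± SD, and the groups overlap for every gene, with Dbp running from -1.67 to 2.26 in HFD mice and from -1.17 to 1.41 in MSXH mice.

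The diet comparison asks whether the extract changed these genes in mice that ate the same fat. None of the 8 clock output genes tested differed between diets (limma with Benjamini-Hochberg adjustment, adjusted p = 0.9998 for each), and 0 of 8 had an unadjusted p under 0.05. Over all 11728 genes tested, 0% were called by limma, 425 genes (3.62%) had an unadjusted p under 0.05, and the exact Wilcoxon rank-sum test called 0 with 399 at an unadjusted p under 0.05. The median g of the 8 was 0.127, beside -0.00692 over all genes.

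Among the PAR bZIP activators, Dbp deviated in HFD mice from -1.67 (mouse 8) through a median of -0.269 to 2.26 (mouse 10), and in MSXH mice from -1.17 through 0.0946 to 1.41. On the deposited scale the Dbp values ran from 6.8508 to 6.8811 log2 in HFD mice. The MSXH values all lay inside the HFD range, and g was 0.144 (95% interval -0.734 to 1.02).
Tef ran from -1.7 (mouse 4) through -0.433 to 1.83 (mouse 10) in HFD mice and from -0.38 through -0.0649 to 1.48 in MSXH mice. All 10 MSXH mice lay above the HFD median and inside the HFD range. The g of Tef was 0.378 (95% interval -0.506 to 1.26), and its Wilcoxon p was 0.247 before adjustment. After quantile normalization g was 0.916 (limma, unadjusted p = 0.0408, adjusted p = 1), and the other probe sets, both below the filter, gave -0.0884 and 0.438.
Hlf ran from -2.07 (mouse 3) through 0.03 to 1.27 in HFD mice and from -1.62 through 0.197 to 1.2 in MSXH mice, again with overlapping groups. Its g was 0.11 (95% interval -0.767 to 0.988) and turned to -0.205 when the arrays were quantile normalized. With arrays shifted to a common median it was 0.369, and in the second probe set, also above the filter, 0.76 (95% interval -0.148 to 1.67; limma, adjusted p = 0.9994).

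Nfil3, the D-box repressor, ran from -1.09 (mouse 10) through 0.13 to 1.92 (mouse 3) in HFD mice and from -1.7 (mouse 8) through -0.529 to 1.78 (mouse 6) in MSXH mice. Its g of -0.451 (95% interval -1.34 to 0.436) was the lowest of the 9, with 4 of 10 MSXH mice above the HFD median.

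Of the E-box repressors, Bhlhe40 ran from -1.76 (mouse 3) through 0.286 to 1.09 in HFD mice and from -1.63 through 0.253 to 1.26 in MSXH mice. Group medians were nearly the same, and g was -0.0183 (95% interval -0.895 to 0.858).
Bhlhe41 ran from -2.21 (mouse 3) through -0.04 to 1.94 (mouse 2) in HFD mice and from -0.868 through 0.0611 to 1.34 in MSXH mice. Its g was 0.23 (95% interval -0.649 to 1.11) and was -0.0174 in its other probe set, which tracked the first with a rho of 0.161; both probe sets lay below the filter.

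Usp2, whose protease acts on clock proteins among other substrates, ran from -1.83 (mouse 3) through -0.0342 to 1.96 (mouse 2) in HFD mice and from -1.33 through 0.263 to 1.04 in MSXH mice. Its g was 0.293 (95% interval -0.588 to 1.17).
Wee1, the kinase that holds back entry into mitosis, ran from -1.43 through -0.238 to 0.927 in HFD mice and from -1.11 through 0.008 to 1.76 (mouse 7) in MSXH mice. Its g of 0.423 (95% interval -0.464 to 1.31) was the highest of the 9, with 5 of 10 MSXH mice above the HFD median.
Rora ran from -1.5 through 0.0388 to 1.26 in HFD mice and from -1.79 through -0.0999 to 1.44 in MSXH mice. Its g was -0.237 (95% interval -1.12 to 0.643), and it turned to 0.255 when arrays were shifted to a common median and to 0.0586 after quantile normalization.

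**Figure D2:**
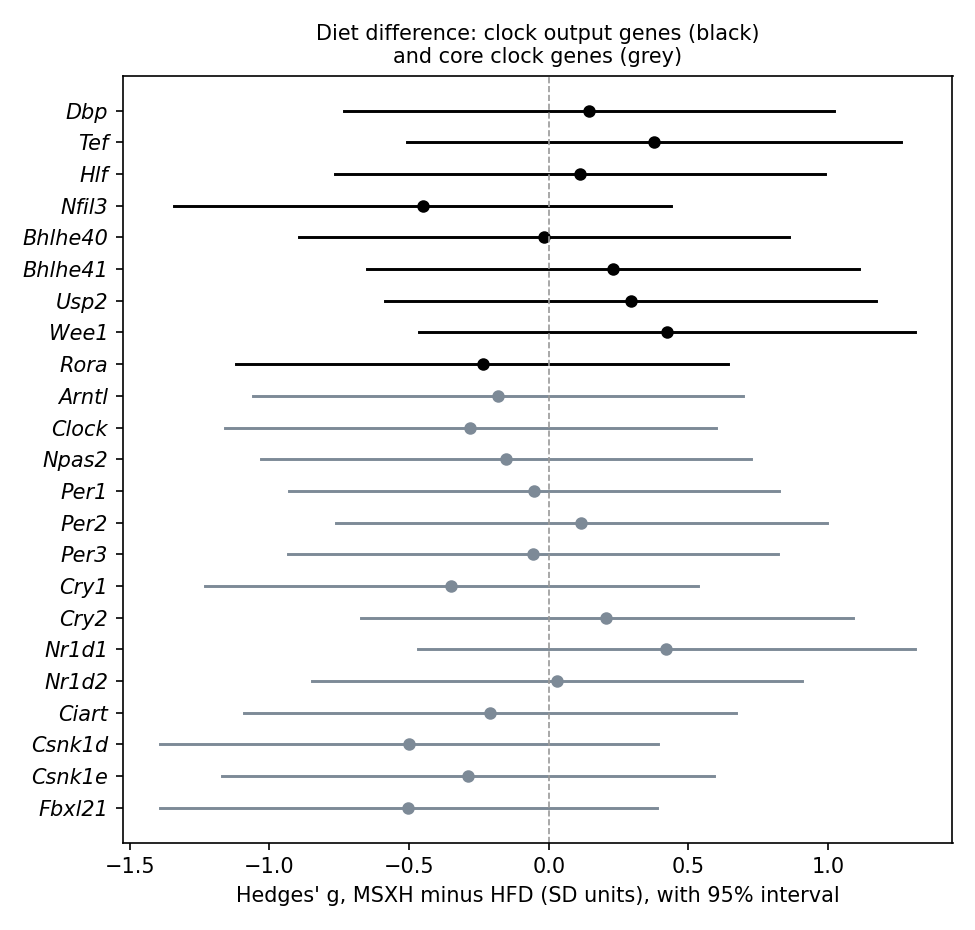
Points are Hedges' g (x axis, MSXH minus HFD in within-group SDs) with 95% intervals for the 9 clock output genes in black and the 14 core clock genes measured in grey, 10 mice per diet. Every interval crosses 0, and the clock output genes lie between -0.451 (Nfil3) and 0.423 (Wee1).

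The 95% intervals of all 9 genes include 0 and reach down to -1.34 (Nfil3) and up to 1.31 (Wee1). With 10 mice per diet, a difference inside a gene's interval is not excluded. Of the other genes of the pathway, 12 of the 14 core clock genes measured were tested, with Npas2 and Fbxl21 below the filter. Of these, 0 passed the limma test, 0 had an unadjusted p under 0.05, and their median g was -0.119. Of the 13 tested out of 17 listed output targets, chiefly drug and lipid metabolism genes such as Cyp7a1 (bile acid synthesis) and Cyp3a11, 0 passed and the median g was 0.0717. Of 8 glucocorticoid-induced genes, 0 passed and the median g was 0.00803.

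The spread of several genes looked unlike between diets, and it was compared with the Brown-Forsythe test, chosen after their values were seen. The SD of Tef was 0.000351 log2 in HFD mice and 0.000171 in MSXH mice, that of Usp2 0.0027 and 0.00153, and that of Wee1 9.61e-05 and 0.000173. None of the 8 tested passed (adjusted p = 0.999 for each), beside 1 of 11728 genes (0.00853%). Wee1 had an unadjusted p of 0.00726, and 3.12% of all genes had an unadjusted p under 0.05.

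Since mice of both diets overlapped in every gene, the genes were compared with each other over the 20 mice, by Spearman's rho with 100000 permutations. The permutation p was adjusted over 234 relations with other clock output genes, core clock genes and glucocorticoid-induced genes. A relation is called at an adjusted p under 0.05, which here corresponds to a rho of at least 0.57 in size. Of all 68767128 pairs of tested genes, 4.21% reach that size. Of the 36 pairs of clock output genes 5 were called (13.9%), of 126 pairs with core clock genes 29 (23%), and of 72 pairs with glucocorticoid-induced genes 17 (23.6%). All 51 kept their sign in Pearson's r without the 2 mice farthest from the first gene's median, with r from 0.429 to 0.851 in size, and 47 of the 51 were also called by Pearson's r.

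The count of called pairs among the clock output genes depended on single mice. It was 2 without HFD mouse 3 or HFD mouse 4, and 3 without HFD mouse 1, 2, 6 or 10 or MSXH mouse 4. Mouse 3 of the HFD group was the lowest of all 20 in Hlf, Bhlhe40, Bhlhe41 and Usp2 and the highest in Nfil3, and mouse 10 of that group was the highest in Dbp and Tef.

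**Figure D3:**
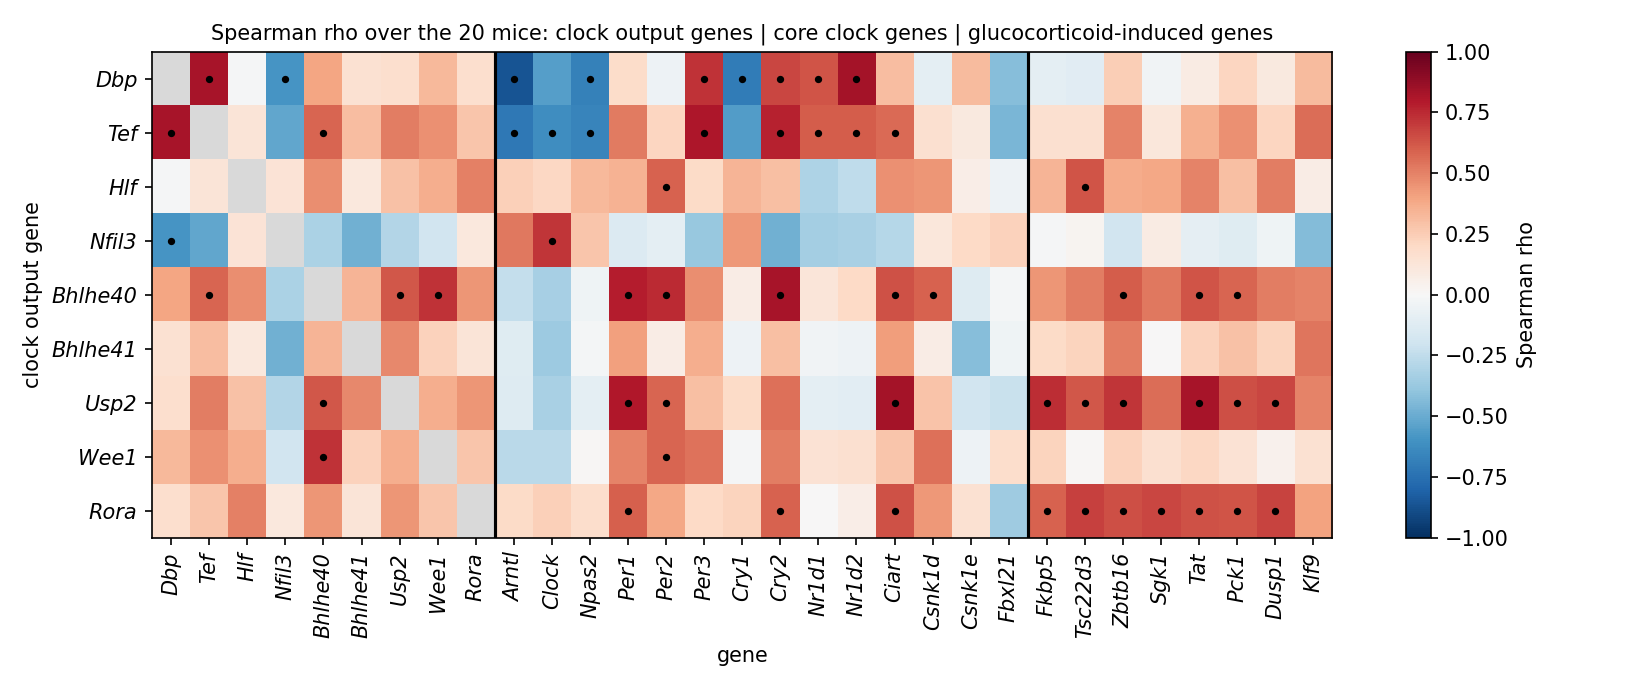
Colour gives Spearman's rho over the 20 mice between each clock output gene (rows) and, from left to right, the clock output genes, the core clock genes and the glucocorticoid-induced genes (columns), and dots mark relations with an adjusted p under 0.05. Dbp and Tef share dots with Arntl (-0.863 and -0.711), Per3, Cry2 and the Nr1d genes, while Usp2 and Rora hold most dots among the glucocorticoid-induced genes; most of the Rora row, and Tef with Per3, Cry2 and Nr1d1, change sign under another scaling.

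Dbp and Tef followed each other closely: rho was 0.824 (adjusted p = 0.000936 by permutation; r = 0.822, permutation p = 2e-05; r = 0.746 without the 2 farthest mice). Mouse 10 of the HFD group was highest in both. The relation had the same size within each diet, 0.818 in HFD mice and 0.818 in MSXH mice, and stayed called without any single mouse. It was 0.856 with arrays shifted to a common median and 0.523 after quantile normalization, where it was no longer called (adjusted p = 0.1 by permutation). With the next probe sets in place of those used, it was 0.698.

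Nfil3 ran against Dbp, with a rho of -0.589 (adjusted p = 0.0365 by permutation; r = -0.593, permutation p = 0.00565; r = -0.517 without the 2 farthest mice). Mouse 10 of the HFD group, highest in Dbp, was the lowest HFD mouse in Nfil3, and mouse 8 of the MSXH group, the highest MSXH mouse in Dbp, was the lowest of all in Nfil3. The rho was -0.758 in HFD mice and -0.418 in MSXH mice, and it was called under both other scalings (-0.573 and -0.661). It was not called without HFD mouse 1, 2, 3, 4, 6, 8 or 10 or without MSXH mouse 4 or 8. The relation of Nfil3 to Tef had the same sign, with a rho of -0.517, and missed the threshold (adjusted p = 0.0768 by permutation).

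Hlf, the third PAR bZIP gene, had a rho of -0.00902 with Dbp and 0 called relations with other clock output genes. The nearest was with Rora, at 0.505 (adjusted p = 0.081 by permutation).

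The E-box repressor Bhlhe40 was called with Wee1, Usp2 and Tef. Its rho with Wee1 was 0.723 (adjusted p = 0.00827 by permutation; r = 0.705, permutation p = 0.00075; r = 0.681 without the 2 farthest mice), 0.552 in HFD mice and 0.83 in MSXH mice. That relation fell to 0.474 with arrays shifted to a common median, 0.388 after quantile normalization and 0.305 with the second probe set of Wee1, and was called in none of these.
The rho of Bhlhe40 with Usp2 was 0.623 (adjusted p = 0.027 by permutation; r = 0.689, permutation p = 0.00084; r = 0.626 without the 2 farthest mice) and was called under both other scalings (0.62 and 0.652). It was 0.927 in HFD mice and 0.358 in MSXH mice, and was not called without HFD mouse 3, HFD mouse 4 or MSXH mouse 4. Mouse 3 of the HFD group was the lowest of all 20 mice in both genes.
The rho of Bhlhe40 with Tef was 0.583 (adjusted p = 0.0386 by permutation; r = 0.565, permutation p = 0.00988; r = 0.563 without the 2 farthest mice), 0.588 in HFD mice and 0.418 in MSXH mice. It was not called under either other scaling (0.493 and 0.158), nor without HFD mouse 1, 2, 3, 4, 6, 7 or 10 or MSXH mouse 1, 7, 8 or 10.

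**Figure D4:**
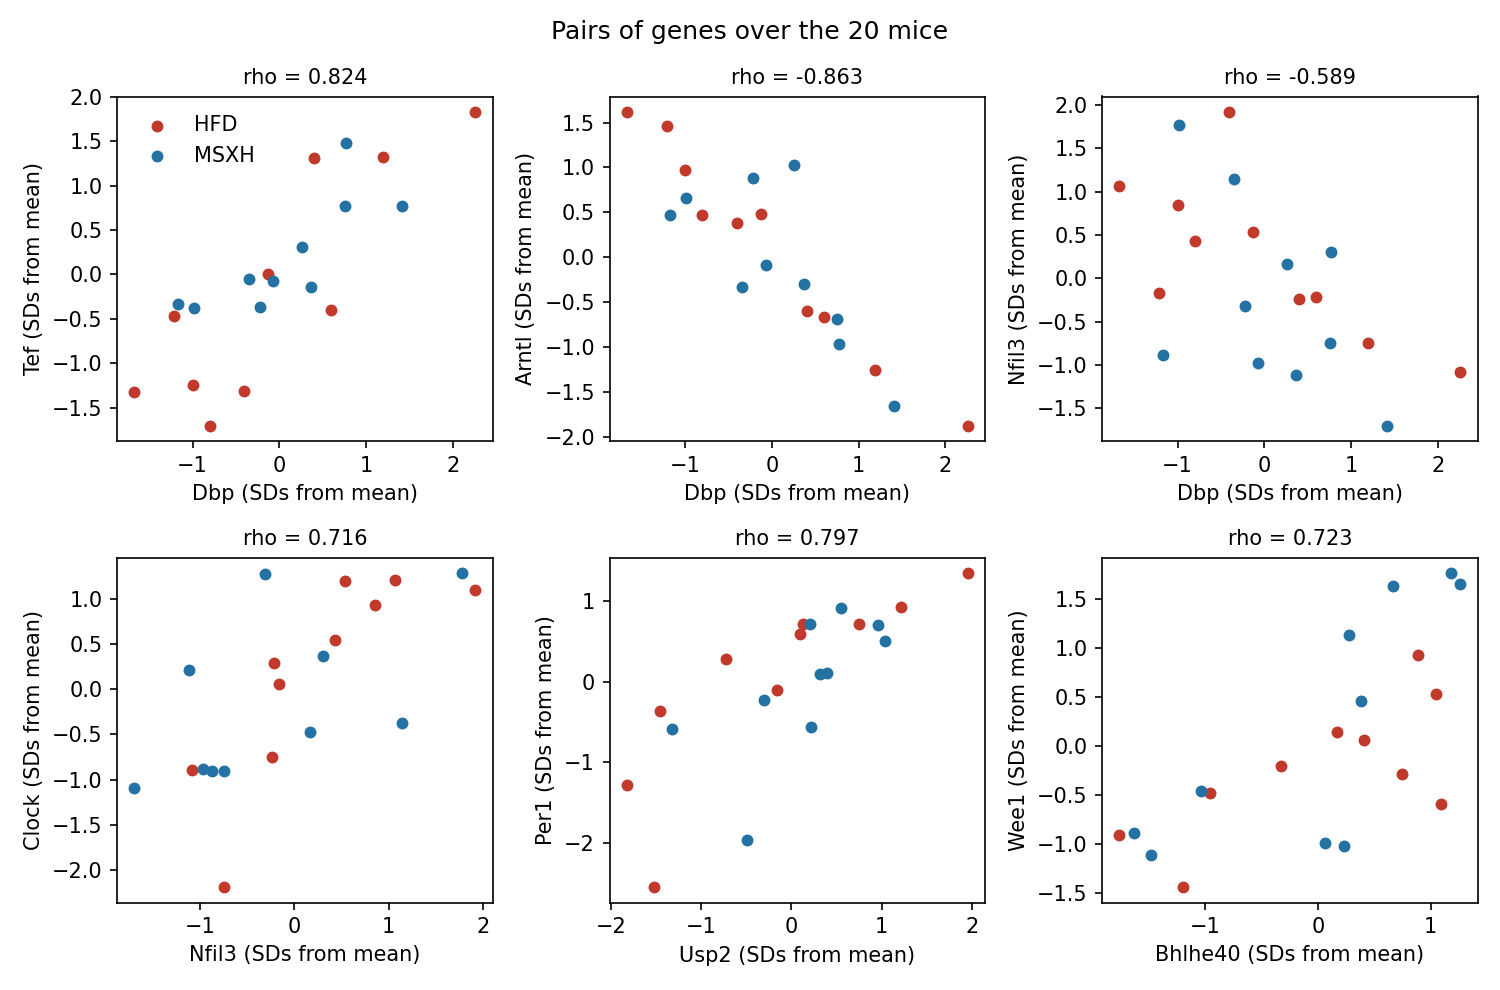
Each panel plots 1 pair of genes over the 20 mice, both axes as deviations from the gene's mean in SDs, HFD in red and MSXH in blue. Tef rises with Dbp (rho 0.824) while Arntl and Nfil3 run against Dbp (-0.863 and -0.589), and Clock with Nfil3 (0.716), Per1 with Usp2 (0.797) and Wee1 with Bhlhe40 (0.723) run together.

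Against the core clock, Dbp and Tef had a negative rho with Arntl and a positive rho with Nr1d2 under all 3 scalings. Dbp was called with 7 of 14 core clock genes, beside 2.13% of all genes at the same size of rho. Arntl, which encodes BMAL1, gave -0.863 (adjusted p = 0.000936 by permutation; r = -0.901, permutation p = 1e-05, the smallest these permutations give; r = -0.851 without the 2 farthest mice), with -0.964 in HFD mice and -0.661 in MSXH mice. It was called under both other scalings (-0.884 and -0.806) and without any single mouse, but was -0.329 between the second probe sets of the 2 genes. Npas2, a partner of BMAL1 in place of CLOCK, gave -0.677, and Cry1, a repressor of that drive, -0.701. Positive relations were called with Nr1d2 (0.829) and Nr1d1 (0.63), the repressors of Arntl, and with Per3 (0.726) and Cry2 (0.666). The Nr1d2 relation was called under both other scalings (0.826 and 0.842), but fell to 0.43 between second probe sets and was then not called. Those of Per3, Nr1d1 and Cry2 were not called under either other scaling, that of Npas2 (-0.463) not with arrays shifted, and that of Cry1 (-0.578) not after quantile normalization.

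Tef was called with 8 of the 14, beside 1.9% of all genes. Arntl (-0.711), Npas2 (-0.657) and Clock (-0.621) were negative, and Per3 (0.812), Cry2 (0.771), Nr1d1 (0.609), Nr1d2 (0.603) and Ciart (0.57), the product of which represses CLOCK and BMAL1, were positive. The Arntl relation was called under both other scalings (-0.829 and -0.667) but was -0.167 between second probe sets. With those probe sets Clock (-0.152), Npas2 (-0.343), Nr1d1 (0.435), Nr1d2 (0.185) and Ciart (0.499) were not called either. After quantile normalization Tef's relations with Per3 (-0.122), Cry2 (-0.127) and Nr1d1 (-0.11) were of the opposite sign. Tef and Ciart gave 0.758 in HFD mice and -0.188 in MSXH mice. Leaving out HFD mouse 2 ended the call with Clock, and leaving out HFD mouse 4, 8 or 10 or MSXH mouse 7 that with Nr1d1. Those with Nr1d2 and Ciart were called in 14 and 9 of the 20 fits that each left out 1 mouse.

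Nfil3 was called with 1 of the 14, beside 2.92% of all genes: Clock, at 0.716 (adjusted p = 0.00827 by permutation; r = 0.698, permutation p = 0.0007; r = 0.623 without the 2 farthest mice), with 0.915 in HFD mice and 0.661 in MSXH mice. The relation was called with arrays shifted to a common median (0.58) and not after quantile normalization (0.118) or with the second probe set of Clock (0.191). Hlf was called with Per2 alone among the 14 (0.592; 2.53% of all genes), and not under either other scaling (0.296 and 0.52) or with second probe sets (0.168). That call was made in 12 of the 20 fits that left out a mouse.

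Bhlhe40 was called with 5 of the 14, all positive, beside 1.81% of all genes. These were the E-box targets and repressors Per1 (0.785), Per2 (0.747), Cry2 (0.821) and Ciart (0.636), and Csnk1d (0.588), a kinase of the PER proteins. Per1 (0.761 and 0.761), Per2 (0.744 and 0.785) and Ciart (0.638 and 0.73) were called under both other scalings, though Per2 fell to 0.501 with its second probe set and was then not called. Cry2 gave -0.0406 with arrays shifted and 0.0737 after quantile normalization and Csnk1d gave -0.161 with arrays shifted. The call with Ciart was lost without HFD mouse 3, HFD mouse 4 or MSXH mouse 4, and that with Csnk1d was made in 11 of the 20 fits without a mouse. Bhlhe41 was called with 0 of the 14, beside 3.16% of all genes.

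Usp2 was called with Per1 (0.797), Ciart (0.833) and Per2 (0.585), beside 6.89% of all genes, the highest share among the 9. The Per1 relation had r = 0.769 (permutation p = 5e-05) and r = 0.711 without the 2 farthest mice, and its adjusted p was 0.00117 by permutation. Per1 and Ciart were called under both other scalings (0.785 and 0.79, 0.832 and 0.772). Wee1 was called with Per2 (0.579), beside 0.691% of all genes, and under neither other scaling (0.468 and 0.505). With second probe sets, Per2 gave 0.507 with Usp2 and 0.227 with Wee1, and neither was called. Of the 20 fits that left out a mouse, 12 made the call of Usp2 with Per2 and 7 that of Wee1 with Per2. With Arntl, Usp2 gave -0.126, which was not called.

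Usp2 and Rora had the most relations to the 8 glucocorticoid-induced genes, which adrenal hormone switches on through its receptor, though those of Rora turned sign under other scalings. Usp2 was called with 6 of the 8: Tat (0.827), a tyrosine-degrading enzyme, Fkbp5 (0.738), a co-chaperone of the receptor, Zbtb16 (0.713), Dusp1 (0.668), Pck1 (0.647), which opens gluconeogenesis, and Tsc22d3 (0.618). Tat had r = 0.788 (permutation p = 3e-05; r = 0.768 without the 2 farthest mice; adjusted p = 0.000936 by permutation), with 0.915 in HFD mice and 0.794 in MSXH mice. Tat, Fkbp5, Zbtb16 and Dusp1 were called under both other scalings, and Pck1 gave -0.143 with arrays shifted to a common median. The call with Tsc22d3 was lost without HFD mouse 3, 4 or 5 or MSXH mouse 3 or 4. Over the same mice, Usp2 had a rho of 0.686 with the array median (adjusted p = 0.085 by permutation). It was 0.608 with the mean deviation of the hepatocyte markers (adjusted p = 0.144 by permutation) and -0.543 with that of the Kupffer cell markers (adjusted p = 0.293 by permutation). None passed the threshold, but these were adjusted over a separate 81 relations. The first and second exceed the 0.57 at which relations between genes were called. All 10 Kupffer cell markers were measured, with their mean deviation from -0.88 to 1.51 SDs in HFD mice and from -1.98 to 1.82 in MSXH mice, and the hepatocyte markers from -1.22 to 0.696 and from -0.581 to 0.589. Their part in the relations of Usp2 was not tested.

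Rora was called with 7 of the 8 (Tsc22d3 0.686, Dusp1 0.675, Sgk1 0.669, Zbtb16 0.645, Tat 0.639, Pck1 0.63 and Fkbp5 0.591) and with Ciart (0.639), Per1 (0.598) and Cry2 (0.592), beside 2.78% of all genes. These relations did not hold their direction: of the 10, 2 kept their sign with arrays shifted to a common median and 1 after quantile normalization. Rora and Tat, for instance, gave -0.632 and -0.801 under those scalings, and Rora and Ciart -0.573 and -0.781. Rora itself had a rho of 0.516 with the array median (adjusted p = 0.294 by permutation). With the hepatocyte markers it was 0.477 (adjusted p = 0.332 by permutation). Neither passed the threshold over the 81 such relations, and their part in the relations of Rora was not tested. The other 8 probe sets of Rora had a rho from -0.26 to 0.722 with the one used. MSXH mouse 4, the lowest of all 20 in Rora, was among the mice whose removal ended the calls with Tat, Pck1, Fkbp5, Per1 and Cry2.
Bhlhe40 was called with Tat (0.632), Zbtb16 (0.603) and Pck1 (0.58), of which Tat was called under both other scalings (0.632 and 0.658) and Pck1 gave -0.0376 with arrays shifted. Its calls with Tat, Zbtb16 and Pck1 were made in 17, 13 and 7 of the 20 fits without a mouse. Hlf was called with Tsc22d3 (0.632), which gave -0.0301 with arrays shifted and was not called without HFD mouse 3, HFD mouse 6 or MSXH mouse 4. Dbp, Tef, Nfil3, Wee1 and Bhlhe41 were called with 0 of the 8.

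Over the 3 scalings, 15 of the 51 relations were called with the same sign. They are Dbp with Nfil3, Arntl and Nr1d2; Tef with Arntl; Bhlhe40 with Usp2, Per1, Per2, Ciart and Tat; and Usp2 with Per1, Ciart, Fkbp5, Zbtb16, Tat and Dusp1. With second probe sets 23 of the 51 were called with the same sign, and of the 15 those of Dbp with Arntl and Nr1d2, Tef with Arntl and Bhlhe40 with Per2 were not. A gene with 1 probe set kept it there. The rho of Bhlhe40 with Per1 (0.785) and with Ciart (0.636) was therefore unchanged and not tested anew, and such pairs are among the 23. Within the diets, 50 of the 51 had the same sign in both, Tef with Ciart being the exception. The median size over the 51 was 0.758 in HFD mice and 0.648 in MSXH mice. Since the 51 were picked by their rho over these same mice, a shared sign is largely set by that choice. The count is therefore no replication across diets, and no such share was computed for other pairs of genes. A test of the difference in rho between diets, chosen after the values were seen, passed for 0 of the 51 after adjustment and for 5 before it. The smallest unadjusted permutation p of these was 0.0164, for Usp2 with Per1, at 0.976 in HFD mice and 0.709 in MSXH mice (adjusted p = 0.358).

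The output targets are genes known to be driven by clock output regulators in liver. Of 117 relations with the 13 measured output targets, adjusted as a family of their own, 0 were called by rho. By Pearson's r, Usp2 with Slc6a6 (r = -0.69, adjusted p = 0.038 by permutation) and Bhlhe41 with Fgf21 (r = -0.74, adjusted p = 0.0363 by permutation) were called. Their rho was -0.671 (adjusted p = 0.187 by permutation) and -0.544 (adjusted p = 0.548 by permutation). The first is larger in size than the 0.57 of the relations called above. The 0 by rho therefore does not rest on the same threshold as the counts for core clock and glucocorticoid-induced genes. Within the diets, Usp2 with Slc6a6 gave -0.891 in HFD mice and -0.455 in MSXH mice. Bhlhe41, which lies below the filter, gave -0.842 and -0.115 with Fgf21.

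Over all genes tested, the 3 whose values most resembled each clock output gene by rho over the 20 mice, in either direction, were as follows, given as a description with no test. For Dbp they were Arntl, Tns2 (0.854) and Safb (-0.836), and for Tef they were Dbp, Nmnat1 (-0.814) and Per3. Hlf lay nearest to Tia1 (0.832), Chst13 (0.829) and Tbc1d14 (0.792), and Nfil3 to Wapl (0.814), B3galnt2 (0.777) and Atp13a3 (0.776). Core clock genes were among the nearest of Dbp and Tef, and 0 were among the 3 nearest of Hlf or Nfil3.
Bhlhe40 lay nearest to Ahdc1 (0.857), Cry2 and Zfp385b (0.788), and Bhlhe41 to Dancr (-0.826), Pck2 (0.805) and Fbrsl1 (-0.798). Usp2 lay nearest to Paqr9 (-0.884), Lpin1 (0.875) and Atp1b1 (0.869). Wee1 lay nearest to Mroh2a (-0.737), Bhlhe40 and Fam78a (-0.714), and Rora to Garem1 (0.871), Cebpb (0.833) and Rbl2 (0.82).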

How the data were processed

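Liver RNA of 20 mice was hybridised to 1-colour Affymetrix 3′ expression arrays from 200 ng of total RNA, per the labels' protocols. The authors deposited log2 values for 45101 probe sets; how background was corrected and arrays were normalized is not given in the sources used here. Platform annotation names 1 gene for 34945 probe sets, several for 932 and none for 9160; 64 are controls. Each gene was taken at its probe set of highest mean (18193 genes), and the 11728 above the median level of 6.5054 log2 were tested on the values as deposited by limma's moderated test (version 3.58.1, default lmFit and eBayes, R 4.3.3; Benjamini-Hochberg adjustment, threshold 0.05). Correlations were computed in Python 3.11.15 with SciPy 1.17.1, with two-sided permutation p-values adjusted over each family of relations. Both were checked on simulated data.

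The members and gene lists were chosen with earlier results of these data known. The named genes are the 9 members, the core clock, output target and glucocorticoid lists, and the 3 genes most like each member. Marker lists of hepatocytes, Kupffer, endothelial, stellate, bile duct, lymphocyte and red blood cells, the array median and the actin 3′ minus 5′ signal were each correlated with each of the 9 members (81 relations, 0 past an adjusted p of 0.05). Compression between arrays makes fold changes unreadable, and precision is limited by the 20 arrays. The labels call the arrays biological replicates and do not say whether a shared number pairs mice across diets. Whole-array correlations of same-numbered deviations ran from -0.133 to 0.369. Their mean was 0.053, beside -0.00601 for other numbers, which does not decide whether mice are paired. Alternatives were other scalings, filters, probe sets, Pearson's r, a block and leaving out each mouse.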

Additional observations from a re-analysis of the deposited data

How the results depend on the processing

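The number of genes called between diets was 0 under every alternative run, with 46 genes at an unadjusted p under 0.05 when arrays were shifted to a common median, 128 after quantile normalization, 780 with no filter, 197 with the filter at the 75th percentile and 704 with each probe set kept. Among the pairs of clock output genes, 10 were called by Pearson's r, 7 with arrays shifted and 5 after quantile normalization (3 and 2 of them among the 5 as deposited), 1 within HFD mice and 0 within MSXH mice, and leaving out 1 mouse gave 2 to 7. Among the pairs with core clock genes, 29 were called in the values as deposited, 37 with arrays shifted (14 of them among the 29), 18 after quantile normalization (12 shared), 9 within HFD mice (8 shared), 0 within MSXH mice and 14 with second probe sets (11 shared; an alternative chosen after seeing the data), and leaving out 1 mouse gave 20 to 33. Within a diet, the 10 mice also leave less for the test than 20. With second probe sets, a gene with 1 probe set kept it, so pairs of such genes were not tested anew. The diet difference g changed sign for Tef (-0.0884) and Bhlhe41 (-0.0174) with second probe sets, for Hlf after quantile normalization (-0.205), and for Rora with arrays shifted (0.255) and after quantile normalization (0.0586); the cause was not tested. It grew to 0.916 for Tef after quantile normalization and to 0.76 for Hlf and 0.271 for Dbp with second probe sets, and shrank to 0.142 for Usp2 and -0.0148 for Rora with second probe sets and to 0.218 for Wee1 and 0.12 for Bhlhe41 after quantile normalization, none of these called. Leaving out 1 mouse gave g from -0.0232 to 0.454 for Dbp, from -0.109 to 0.302 for Hlf and from -0.217 to 0.157 for Bhlhe40, and kept the sign of the other 6. When the replicate number entered as a block, 0 genes were called and 501 had an unadjusted p under 0.05; 5 pairs of clock output genes were called, 3 of them among the 5 without the block, and 29 pairs with core clock genes, 19 of them shared. The labels do not say whether a shared number links mice, and 2 of 20 arrays had their closest match in the array of the same number.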

Other observations

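Mice that share a replicate number in the 2 diets were compared, a comparison chosen after the data were seen. Over the 10 numbers, the rho between the HFD and the MSXH mouse was 0.782 for Bhlhe41, 0.745 for Wee1, 0.6 for Usp2 and 0.77 for Per1, while it was -0.358 for Dbp and -0.127 for Tef. Of 31 such relations over the clock output, core clock and glucocorticoid-induced genes, 0 passed the permutation test after adjustment.

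Bhlhe41 had a rho of 0.656 over the 20 mice with the bile duct markers (adjusted p = 0.085 by permutation over the 81 array and marker relations). Of these markers 5 of 7 were measured and 2 lay above the filter.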
